A study of Mus musculus with 12 samples.

Results

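The endothelin genes of the mouse retina were followed through 3 models of retinal degeneration (RD) and wild-type mice. The genes were taken from the table of all genes by symbol, and all 6 were found among its 32867 entries: the ligands Edn1, Edn2 and Edn3, the converting enzyme Ece1 and the receptors Ednra and Ednrb. Ribosomal RNA was removed from the RNA of whole retinas, and directional libraries of 12 samples were sequenced, with 3 samples in each of 4 groups. Pde6b rd1 retinas, in which the rod phosphodiesterase subunit Pde6b carries the rd1 allele, were taken at postnatal day 13. Pde6b rd10 retinas, with another allele of that gene, were taken at day 23, and Prph rd2 retinas, with a mutation of the outer segment protein gene Prph2, at day 29. The labels call these ages the peak of photoreceptor death in each model, and the C3H wild-type samples carry normal alleles of both genes and are 1 each of days 13, 23 and 29. Per the study's methods, Pde6b rd10 was on C57Bl6/J and the other groups on C3H, while the labels give C57BL6/J for Prph rd2. Genotype, strain and age therefore cannot be told apart for Pde6b rd10. Pde6b rd1 and Prph rd2 were also each taken at a single age, with 1 C3H sample of that age. Age is thus not separated from genotype in any model, and by the labels strain is not for Prph rd2. The study used mice of either sex.

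Endothelins are short, strongly vasoconstricting peptides. Each ligand gene encodes a precursor that is cut by furin-type proteases to an inactive big endothelin, which Ece1, a membrane metalloprotease, trims to the active peptide. Ednra, the receptor on vascular smooth muscle, drives contraction through Gq proteins and phospholipase C, whereas Ednrb, found on endothelium, glia and neural crest derivatives, also binds and clears the peptides and responds to all ligands, including the Edn3 that Ednra binds poorly. In the retina Edn1 is known from vessels, and Edn2 is known as a gene that injured photoreceptors switch on, with Ednrb on Mueller glia as its counterpart.

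The 250 bases upstream of the RefSeq transcription start (GRCm38.p6) are shown for the 4 members that were called against C3H in any model, as the stretches next to their annotated starts. Counts are per gene and do not tell which start was used, and the Ednrb window lies inside the span that GENCODE gives that gene. Capitals mark the single match found to the motifs searched on both strands.
Edn2, chr4:120160956-120161205, plus strand: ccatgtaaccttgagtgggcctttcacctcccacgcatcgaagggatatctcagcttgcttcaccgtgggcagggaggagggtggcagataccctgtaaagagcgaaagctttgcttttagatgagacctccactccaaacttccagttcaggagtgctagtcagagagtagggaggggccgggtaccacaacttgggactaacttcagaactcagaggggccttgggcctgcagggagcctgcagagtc
Edn3, chr2:174760369-174760618, plus strand: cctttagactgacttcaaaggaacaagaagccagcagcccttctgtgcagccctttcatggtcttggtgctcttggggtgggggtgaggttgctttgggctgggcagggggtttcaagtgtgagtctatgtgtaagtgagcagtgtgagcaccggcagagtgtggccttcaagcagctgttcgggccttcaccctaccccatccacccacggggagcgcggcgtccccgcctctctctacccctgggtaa
Ednrb, chr14:103843702-103843951, minus strand: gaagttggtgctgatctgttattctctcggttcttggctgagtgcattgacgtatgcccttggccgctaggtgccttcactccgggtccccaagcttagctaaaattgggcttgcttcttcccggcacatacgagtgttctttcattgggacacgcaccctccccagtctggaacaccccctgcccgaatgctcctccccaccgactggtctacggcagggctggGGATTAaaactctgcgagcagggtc
Edn1, chr13:42301226-42301475, plus strand: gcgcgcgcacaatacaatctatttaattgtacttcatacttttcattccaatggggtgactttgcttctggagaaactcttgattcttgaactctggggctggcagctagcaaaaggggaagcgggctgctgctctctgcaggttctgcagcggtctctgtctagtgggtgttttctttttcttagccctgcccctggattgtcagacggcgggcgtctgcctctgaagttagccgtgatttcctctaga
The letters searched were TATAAA (the core promoter box of that sequence), TTCNNNGAA (STAT site), TGANTCA (AP-1 site), ACGTG (hypoxia response element core) and TAATCC (CRX site core), which occur on either strand in 12.4%, 7.02%, 6.75%, 16.6% and 6.25% of 32851 promoter stretches of the same length. Ednrb held GGATTA, the reverse of the CRX core, 25 bases upstream of its start. No match stood in these windows of Edn1, Edn2, Edn3 and Ednra, and 1 of the RefSeq starts of Ece1 had CACGTG 90 bases upstream. Sites farther away were not searched.

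In GENCODE vM21 (GRCm38) all 6 are protein-coding genes. Edn1 lies on chromosome 13 (42301476 to 42307990, plus strand, 5 exons), Edn2 on chromosome 4 (120161206 to 120167360, plus strand, 5 exons) and Edn3 on chromosome 2 (174760619 to 174784042, plus strand, 5 exons). Ednra lies on chromosome 8 (77663031 to 77724464, minus strand, 8 exons), Ednrb on chromosome 14 (103814625 to 103844402, minus strand, 8 exons) and Ece1 on chromosome 4 (137862237 to 137965229, plus strand, up to 20 exons). Genes on the opposite strand overlap Edn1 (Gm47118), Ednra (4933431K23Rik) and Ece1 (Gm13012), and none of these had more than 3 counts in any sample. The strand setting of the counting is not given in the sources used here. None of the 12510 circular RNAs in the junction tables lay within a member gene on its strand.

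Gene counts summed to between 17049495 and 24755890 in a sample, and the floor of 3 counts corresponded to 0.121 to 0.176 CPM, the count scaled to library size. Pde6b had 4937 to 6253 counts in Pde6b rd1 against 24335 to 29129 in C3H, and 16340 to 21014 in Pde6b rd10. Prph2 had 30656 to 34634 counts in Prph rd2 against 52768 to 65756 in C3H. Xist, which marks cells with 2 X chromosomes, lay at 0.386 to 0.517 CPM in C3H, 715 to 802 CPM in Pde6b rd10, 1558 to 1980 CPM in Prph rd2 and 3657 to 3890 CPM in Pde6b rd1, so that the sex of the mice, which the labels do not give, cannot be told apart from genotype. All rod markers listed were present in every group. Levels between genes are given as FPKM, fragments scaled to gene length and library size, and each model was compared with the same C3H samples. Calls required a change of 1.5-fold or more with p below 0.05, before adjustment, in edgeR's quasi-likelihood test, and the p-values printed are adjusted by Benjamini-Hochberg over all genes of a comparison.

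Edn2 was the member that differed most between the groups. In C3H its level was 0.0689, 0.114 and 0.173 FPKM, in Pde6b rd1 0.157, 0.201 and 0.213 FPKM, while Prph rd2 had 0.145, 0.171 and 0.169 FPKM. In Pde6b rd10 it was 23.0, 25.4 and 25.7 FPKM, far above every sample of the other groups. Expressed as counts, 833, 695 and 753 reads in the Pde6b rd10 samples stood against at most 6 in any other sample. On the count scale, Edn2 was 200.5-fold higher in Pde6b rd10 than in C3H (2281 against 11 reads, scaled for depth), with a 95% interval of 112 to 402 that covers counting error only. The fitted log2 fold change was 7.60 ± 0.17 (SE, n = 3 per group; edgeR adjusted p = 7.4e-19), which ranked 41 among 18704 genes tested. Edn2 passed the filter on low counts only through the Pde6b rd10 samples, so this p and rank are tied to that filter. In the ranking of all genes by mean FPKM, Edn2 stood above 36.5% of genes in C3H and above 95.1% in Pde6b rd10. Whether more cells or more RNA per cell carried such a difference cannot be told apart in whole retina.

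In the other models Edn2 stayed at a few reads. The samples summed to 16 reads in Pde6b rd1 and 17 in Prph rd2 against 11 in C3H, which gave ratios of 1.49 (95% counting interval 0.649 to 3.55) and 1.34 (0.592 to 3.16). A difference was not detectable at this depth, and Edn2 did not pass the filter on low counts in these comparisons.

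Edn3, the ligand that Ednrb binds best relative to Ednra, was near the limit of detection outside Pde6b rd10. It had 2, 1 and 2 reads in C3H and 1, 0 and 0 in Prph rd2, and no read in any Pde6b rd1 sample. The Pde6b rd10 samples had 16, 19 and 20 reads, or 0.157, 0.247 and 0.243 FPKM, and lay above all others. The ratio to C3H was 10.6 (95% counting interval 4.29 to 34.1; edgeR adjusted p = 1.27e-05), and Edn3 rose in Pde6b rd10 from a level listed at 0.0197 ± 0.00832 FPKM (SD, n = 3). Against the floor of 3 reads in each Pde6b rd1 sample, its level in Pde6b rd10 was at least 5.22-fold higher, and the exact 95% counting interval of the ratio of summed reads (55 against 0) began at 13.6. Even so, its mean of 0.216 ± 0.0507 FPKM (SD, n = 3) in Pde6b rd10 was the lowest of the members there. Both Edn2 and Edn3 passed the filter against C3H only through the Pde6b rd10 samples, in which they were high, so their being called is tied to that filter.

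Edn1, the main vascular endothelin, behaved differently from Edn2. Its level was 0.989, 0.836 and 1.16 FPKM in C3H (42, 43 and 49 reads) and 0.948, 0.996 and 1.00 FPKM in Prph rd2. In Pde6b rd1 it was 0.835, 0.466 and 0.267 FPKM (39, 17 and 11 reads). All Pde6b rd1 values were below the C3H values, but the highest of them touched the lowest C3H value. Edn1 fell in Pde6b rd1 by 0.96 on the log2 scale (SE 0.30, n = 3 per group; edgeR adjusted p = 0.0114). The size rested on single libraries: the log2 fold change was -1.51 without Pde6b rd1 replicate 1 and -0.64 without replicate 3, where the adjusted p was 0.0574, and against the day 13 C3H sample alone it was -0.97 with an adjusted p of 0.121. In Pde6b rd10 Edn1 had 1.19, 1.12 and 1.52 FPKM, which overlapped the C3H values, and its log2 fold change of 0.31 ± 0.20 (SE) had an adjusted p of 0.186. In Prph rd2 it was -0.04 ± 0.20 (SE) with an adjusted p of 0.933.

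**Figure D1:**
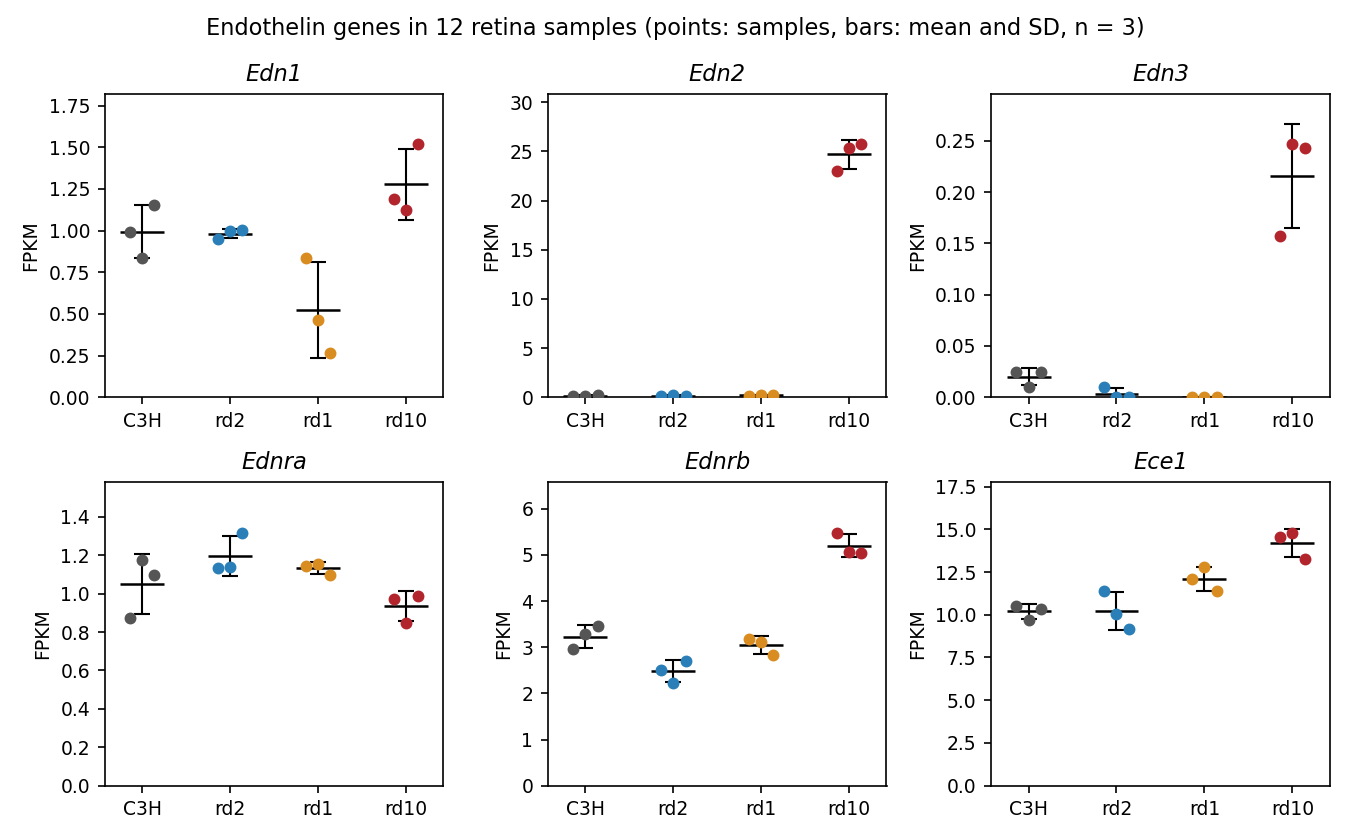
FPKM (vertical axes, linear, from 0) of the 6 endothelin genes in C3H, Prph rd2, Pde6b rd1 and Pde6b rd10 retinas, each point 1 sample, with bars at the mean ± SD of 3 samples. Edn2 stands at 23.0 to 25.7 FPKM in Pde6b rd10 and at no more than 0.213 in every other sample, and the mean of Edn1 is lowest in Pde6b rd1.

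Ece1, which activates big endothelins, was the most abundant member in all groups but Pde6b rd10, where Edn2 exceeded it. Its level was 10.5, 9.70 and 10.4 FPKM in C3H and 11.4, 10.1 and 9.16 FPKM in Prph rd2, which overlapped. It was 12.1, 12.8 and 11.4 FPKM in Pde6b rd1 and 14.6, 14.8 and 13.3 FPKM in Pde6b rd10, and both models lay wholly above C3H. The log2 fold changes of 0.17 ± 0.05 in Pde6b rd1 (edgeR adjusted p = 0.00657) and 0.43 ± 0.05 in Pde6b rd10 (edgeR adjusted p = 1.21e-06) exceeded the spread between samples but were short of 1.5-fold, so Ece1 was not called. In Pde6b rd1 the edgeR adjusted p was 0.0824 without C3H replicate 2 and 0.107 with all samples in 1 fit. The same fits gave 7.08e-05 and 2.97e-05 in Pde6b rd10. Against the C3H sample of the same age alone, the log2 fold change of Ece1 was 0.12 in Pde6b rd1 and 0.50 in Pde6b rd10. In Prph rd2 the log2 fold change of Ece1 was -0.03 ± 0.07 with an adjusted p of 0.864.

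Ednrb, the receptor of glia and endothelium, rose in Pde6b rd10. Its level was 2.96, 3.28 and 3.45 FPKM in C3H and 5.48, 5.07 and 5.04 FPKM in Pde6b rd10, with no overlap. The log2 fold change was 0.63 ± 0.08 (SE, n = 3 per group; edgeR adjusted p = 1.15e-06), or 1.55-fold. The fold lay close to the threshold. Without C3H replicate 1, the day 13 sample, it was 0.57 on the log2 scale and no longer called, with an edgeR adjusted p of 1.87e-05. Ednrb was 2.52, 2.23 and 2.70 FPKM in Prph rd2, all below C3H, and its log2 fold change of -0.41 ± 0.10 had an adjusted p of 0.0191 but stopped at 0.751-fold and was not called. The edgeR adjusted p was 0.0559 without Prph rd2 replicate 1, 0.0871 without C3H replicate 2 and 0.101 without C3H replicate 3. With limma the adjusted p was 0.0784 on log2(FPKM + 1) and 0.0776 on log2(FPKM + 0.1). Against the day 29 C3H sample alone the log2 fold change was -0.51. Leaving out each replicate in turn gave log2 fold changes of -0.48 to -0.34. In Pde6b rd1 the values were 3.19, 3.12 and 2.82 FPKM, within the C3H range apart from the lowest, and the log2 fold change was -0.16 ± 0.09 with an adjusted p of 0.153.

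Ednra, the contractile receptor, was not called in any model. It had 0.874, 1.18 and 1.10 FPKM in C3H, 1.15, 1.16 and 1.10 FPKM in Pde6b rd1, 1.13, 1.14 and 1.32 FPKM in Prph rd2 and 0.974, 0.849 and 0.986 FPKM in Pde6b rd10. The samples of the groups overlapped C3H throughout. Its log2 fold changes were 0.03 ± 0.13 in Pde6b rd1, 0.15 ± 0.13 in Prph rd2 and -0.22 ± 0.14 in Pde6b rd10, with adjusted p-values of 0.87, 0.549 and 0.179.

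Counted over the list, 1 of the 4 members tested was called in Pde6b rd1 (Edn1, lower), where 15.0% of all genes tested were called, 8.98% higher and 6.03% lower. In Prph rd2 none of the 4 members tested was called at an unadjusted p under 0.05 with a 1.5-fold change, against a background of 4.57%, of which 2.68% were higher and 1.89% lower. In Pde6b rd10, 3 of the 6 members tested were called, Edn2, Edn3 and Ednrb, all higher. Edn2 and Edn3 were tested only through the Pde6b rd10 samples, so their calls cannot be set against the share of all genes. Of the remaining members Ednrb alone was called. Over all genes tested in Pde6b rd10, 23.9% were called, with 15.9% higher and 8.08% lower. Outside the members, groups that did not overlap were common, at 51.8% of the genes tested for Pde6b rd1, 28.8% for Prph rd2 and 59.2% for Pde6b rd10. An adjusted p under 0.05 at any fold, which Ece1 also had in both Pde6b models and Ednrb in Prph rd2, was reached by 43.2% of genes in Pde6b rd1, by 9.70% in Prph rd2 and by 54.1% in Pde6b rd10.

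**Figure D2:**
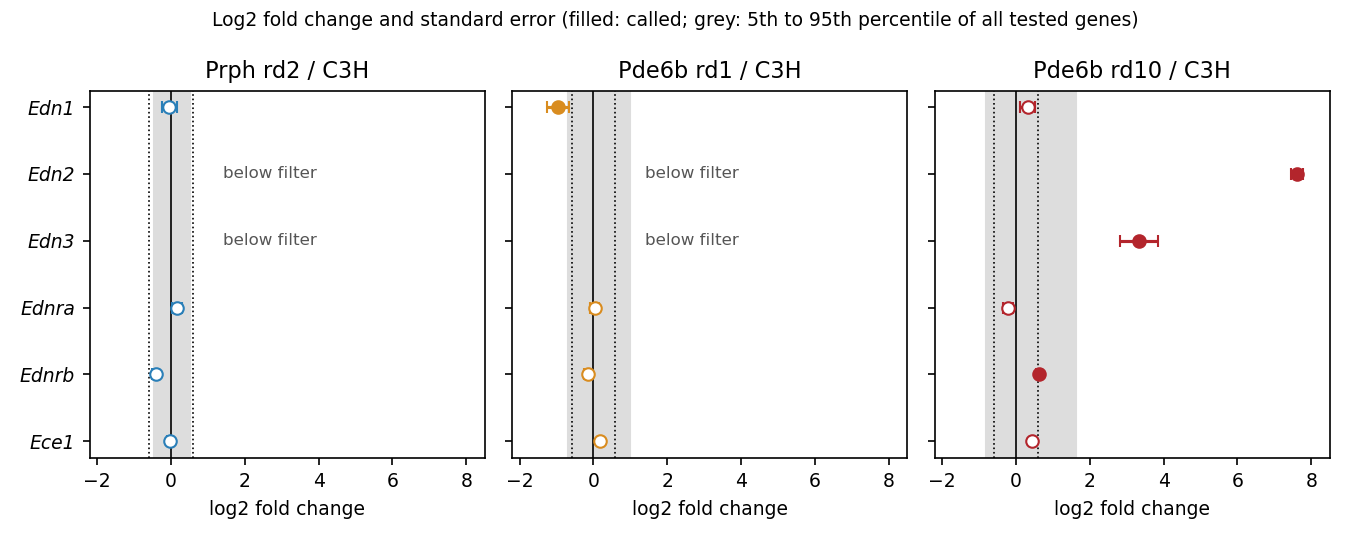
Log2 fold change against C3H (horizontal axes) with its standard error for each member in the 3 models, filled where called and open where not, dotted lines at 1.5-fold and grey bands for the 5th to 95th percentile of all genes tested. In Pde6b rd10 Edn2 and Edn3 lie beyond the upper percentile of 1.63, and in Pde6b rd1 Edn1 lies below the lower percentile of -0.68.

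The balance between ligand and receptor transcripts shifted with Edn2. Summed over the ligand genes, the level was 1.13 ± 0.201 FPKM in C3H, 0.713 ± 0.259 in Pde6b rd1, 1.15 ± 0.0387 in Prph rd2 and 26.2 ± 1.64 in Pde6b rd10 (SD, n = 3). Edn2 made up 10.3% of this sum in C3H and 94.3% in Pde6b rd10, so the sum changed its main component from Edn1 to Edn2. The receptor sum was 4.28 ± 0.387 FPKM in C3H and 6.13 ± 0.284 FPKM in Pde6b rd10. The quotient of ligand to receptor FPKM was 0.282, 0.216 and 0.297 in the C3H samples and 3.77, 4.52 and 4.57 in the Pde6b rd10 samples. The quotient of Ednrb to Ednra was 3.11 ± 0.307 in C3H, 2.68 ± 0.109 in Pde6b rd1, 2.08 ± 0.129 in Prph rd2 and 5.57 ± 0.435 in Pde6b rd10 (SD, n = 3). It lay wholly above the C3H range in Pde6b rd10 and wholly below it in Prph rd2. An exact two-sided permutation test against C3H gave p = 0.1, the smallest that 3 against 3 samples allow, for both quotients in Pde6b rd10 and for Ednrb to Ednra in Prph rd2. The exact test gave p = 0.2 for the other comparisons, and all were 0.2 after adjustment over the 6.

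**Figure D3:**
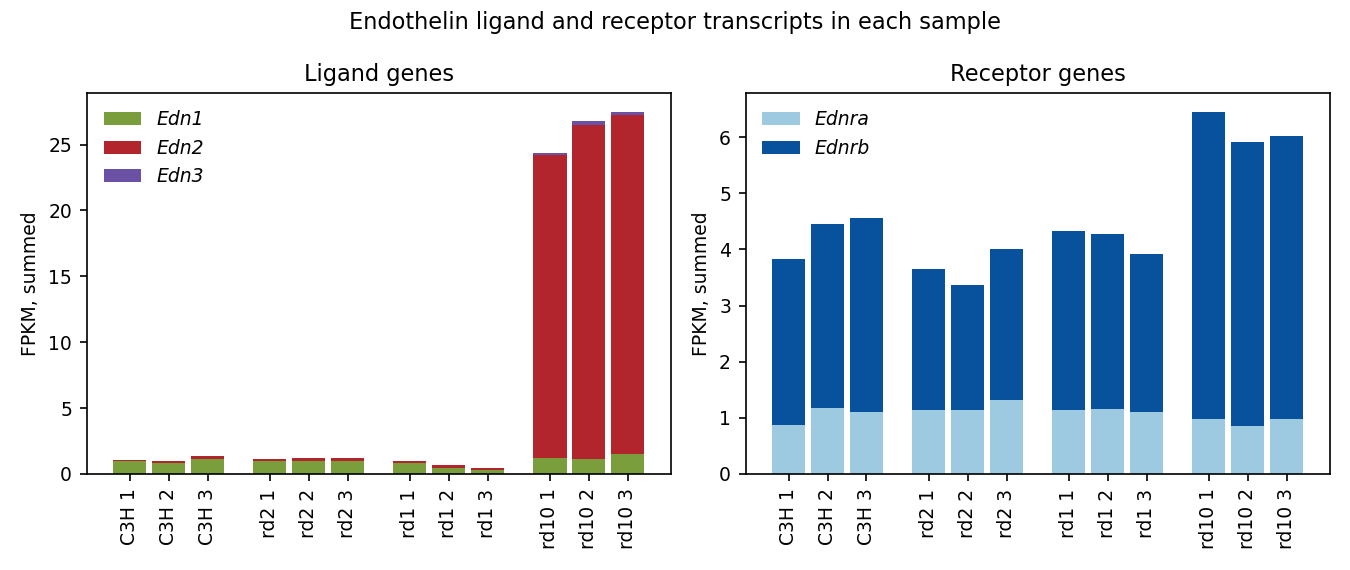
FPKM in each of the 12 samples, stacked over the 3 ligand genes (left) and the 2 receptor genes (right), both axes linear from 0. The Pde6b rd10 bars reach 24.4 to 27.5 FPKM on the ligand side, nearly all of it Edn2, and 5.92 to 6.46 FPKM on the receptor side, most of it Ednrb.

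The models were also compared with one another, by contrasts in a fit of all 12 samples. Between Pde6b rd10 and Pde6b rd1, which carry alleles of the same gene, 28.8% of genes tested were called, and 17.6% were higher in Pde6b rd10. Edn2, Edn3, Ednrb and Edn1 were among them: the log2 difference was 7.05 ± 0.16 for Edn2 (edgeR adjusted p = 2.26e-18), 0.82 ± 0.09 for Ednrb (9.84e-08) and 1.30 ± 0.28 for Edn1 (0.000462). Edn2 and Edn3 passed the filter of this fit only through the Pde6b rd10 samples, so their calls against either other model are tied to that filter. Between Pde6b rd10 and Prph rd2, where the background was 19.7%, with 13.5% higher, Edn2 was higher by 7.20 ± 0.15 (2.25e-18) and Ednrb by 1.05 ± 0.09 (4.13e-09), and Edn3 was called with 55 reads against 1, a ratio of 61.4 (95% counting interval 10.6 to 2468). Ednra was lower in Pde6b rd10 than in Prph rd2 by a log2 difference of -0.37 ± 0.12 (edgeR adjusted p = 0.0206), short of 1.5-fold. Between Pde6b rd1 and Prph rd2, with a background of 16.9%, and 8.21% lower, Edn1 was called at -0.94 ± 0.28 (edgeR adjusted p = 0.0114). Ednrb differed there by 0.23 with an adjusted p of 0.056.

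In order of level, Edn1 was thus lowest in Pde6b rd1, with Prph rd2, C3H and Pde6b rd10 above it and not called against each other. Ednrb ran from Prph rd2 through Pde6b rd1 and C3H to Pde6b rd10, and of neighbouring groups C3H and Pde6b rd10 were the pair called. Edn2 and Edn3 were highest in Pde6b rd10, and the remaining groups lay within a few reads of each other. The means of Ednra ran from Pde6b rd10 through C3H and Pde6b rd1 to Prph rd2, with no pair called and with an adjusted p under 0.05 for the outermost pair.

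The genes most like each member over the 12 samples were sought by the root mean square difference of log2 CPM, each gene centred on its C3H mean, among 19616 genes. For Edn2 they were B230220B15Rik (0.429), the chemokine gene Cxcl10 (0.463) and Trim12a (0.521), all of which were at or near 0 CPM outside Pde6b rd10 and above 7 CPM within it. Edn3 was nearest to Parp3 (0.313), Serpina3i (0.336) and Kirrel3os (0.359). Ednrb was nearest to the cytokine receptor gene Tnfrsf11a (0.0458), the semaphorin receptor gene Plxnd1 (0.109) and the Notch ligand gene Dll1 (0.114). Edn1 was nearest to Mill2 (0.275), Glp2r (0.280) and Tmprss4 (0.291). The nearest to Ednra were Cnih1 (0.0800), Uhrf2 (0.0857) and Xpo4 (0.0904), and those to Ece1 were Ildr2 (0.0764), Rrbp1 (0.0792) and Limch1 (0.0810). These distances are a description of the same samples, and a small one comes easily to a gene that varies little.

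Other enzymes of endothelin processing and breakdown were read next to Ece1. Of 9 listed peptidase genes 7 passed the filter in each model. Mme, which encodes neprilysin, a peptidase that degrades endothelins, was called in all models: it rose in Pde6b rd10 (log2 fold change 0.88 ± 0.15; edgeR adjusted p = 4.45e-05) and Prph rd2 (0.64 ± 0.17; 0.0293) and fell in Pde6b rd1 (-0.87 ± 0.23; 0.0034). Ecel1, a neuronal relative of Ece1, was called in the opposite direction each time, at -1.37 ± 0.32 in Pde6b rd10 (0.00108), -1.04 ± 0.31 in Prph rd2 (0.0509) and 0.75 ± 0.24 in Pde6b rd1 (0.0153). Mmel1 fell in Pde6b rd10 by 0.68 ± 0.18 on the log2 scale (0.00334). The precursor protease gene Furin was not called, with log2 fold changes of -0.02 in Pde6b rd10 and -0.08 in Pde6b rd1.

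Signalling genes downstream of the receptors were called higher about as often as genes in general in Pde6b rd10, and none was called lower. Of all genes, 15.9% were called higher there and 8.08% lower. Of 18 genes for G proteins, phospholipase C isoforms, inositol trisphosphate receptors and protein kinase C, Pde6b rd1 and Prph rd2 had none called, where 15.0% and 4.57% of all genes were. In Pde6b rd10 Itpr1 (log2 fold change 0.87 ± 0.05; edgeR adjusted p = 3.02e-12), Prkcd (0.60 ± 0.09; 1.15e-05) and Plcb2 (1.54 ± 0.29; 1.18e-04) rose, 3 of 18 against 15.9% of all genes. Of 10 receptor desensitization genes, the receptor kinase gene Grk3 rose in Pde6b rd10 (0.61 ± 0.06; 1.89e-08), and none was called in the other models. The medians of these lists in Pde6b rd10 were 0.15 and 0.24, against 0.00 over all genes. Among the related orphan receptors, Gpr37l1 rose in Pde6b rd10 (1.86 ± 0.21; 2.99e-07) and fell in Pde6b rd1 (-1.12 ± 0.38; 0.0211), and Gpr37 fell in Pde6b rd10 (-0.62 ± 0.04; 1.04e-11).

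Of 14 factors and signals known to act on endothelin gene transcription, 4 were called higher in Pde6b rd10, where 15.9% of all genes were. These were the NF-kB subunit gene Nfkb1 (0.70 ± 0.06; edgeR adjusted p = 7.16e-09), the AP-1 subunit gene Fos (0.59 ± 0.06; 3.53e-08), the cytokine gene Tgfb1 (0.78 ± 0.13; 3.24e-05) and Gata2 (0.95 ± 0.29; 0.00951). The Fos value lay at 1.51-fold, close to the threshold. Fos alone was called in Pde6b rd1, at 1.11 ± 0.05 (1.81e-14), whereas in Prph rd2 Fos fell (-1.45 ± 0.07; 1.43e-08) and Gata2 was called higher (0.76 ± 0.31; 0.148).

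Edn2 is known in the injured retina together with the cytokine LIF, and most of the genes tested from this axis were called higher in Pde6b rd10. Lif, named after its values were seen, had 283, 223 and 225 reads in Pde6b rd10 and 8, 6 and 7 in C3H. It passed the filter on low counts only through the Pde6b rd10 samples and is left out of the next count. This list and the glial response list were chosen with earlier results of these data known. Their counts beside the share of all genes are a description of these samples. Of the other 9 genes tested in Pde6b rd10, 6 were called higher and none lower, against 15.9% of all genes called higher, with a median log2 fold change of 1.63 against 0.00 over all genes. By the smallest p these were led by the survival factor gene Fgf2 (4.62 ± 0.07; edgeR adjusted p = 7.33e-22), the feedback inhibitor gene Socs3 (4.20 ± 0.10; 2.83e-18), the receptor gene Osmr (3.10 ± 0.08; 2.32e-17) and the transcription factor gene Stat3 (1.63 ± 0.05; 5.51e-17). In Pde6b rd1 and Prph rd2 none of these 9 genes was called. Of 8 genes of glial response, 7 were called higher in Pde6b rd10, with a median of 3.83, led by A2m (4.52 ± 0.06; 7.33e-22), the intermediate filament gene Gfap (3.19 ± 0.05; 2.21e-21), Lcn2 (5.82 ± 0.10; 1.9e-20) and Serpina3n (6.36 ± 0.11; 2.62e-20). In Pde6b rd1 Serpina3n alone was called, lower (-1.05 ± 0.34; 0.0154), and in Prph rd2 none was. The grouping of the Pde6b rd10 samples was the same as for Edn2, and what links the levels was not tested.

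**Figure D4:**
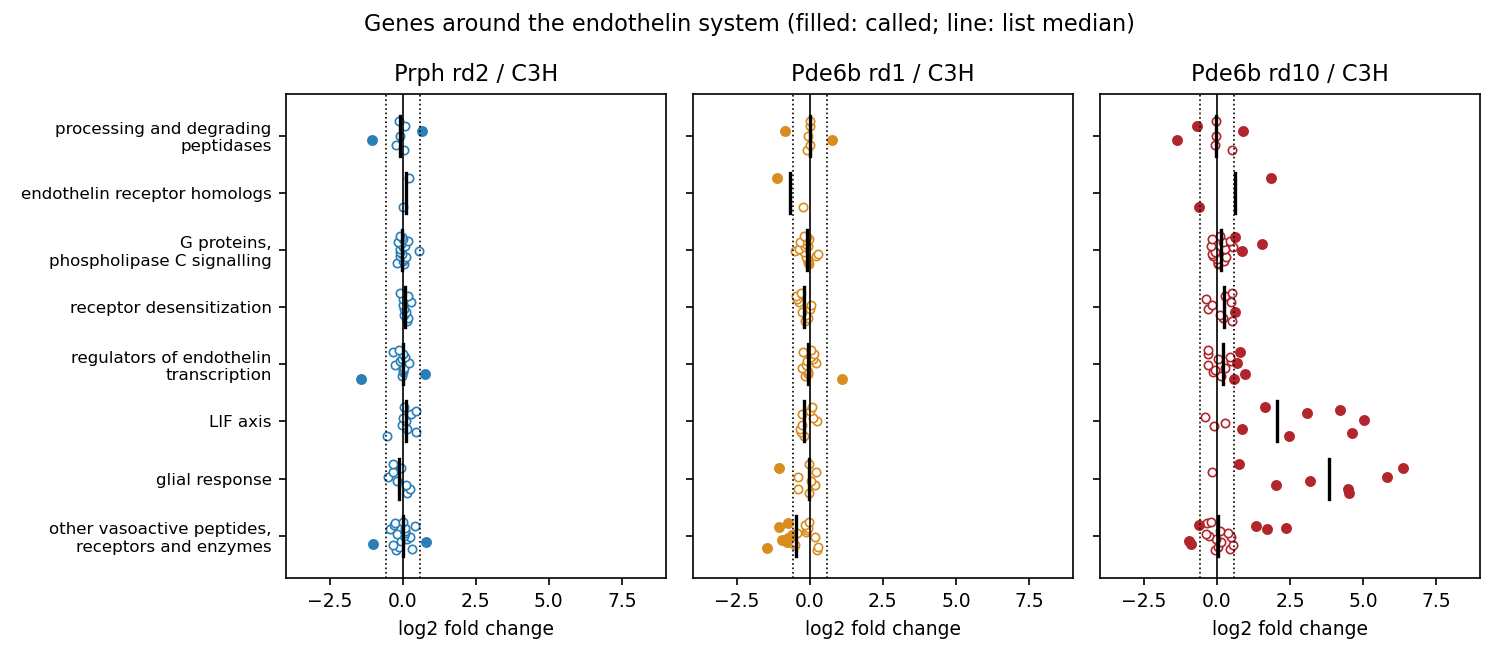
Log2 fold change against C3H (horizontal axes) of the genes in 8 lists around the endothelin system, filled where called, with a black line at each list's median and dotted lines at 1.5-fold. In Pde6b rd10 the LIF axis list, here with Lif, and the glial response list have medians of 2.05 and 3.83, and in the other models the medians of all lists lie between -0.68 and 0.11.

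Marker genes of the retinal cell types, also listed with earlier results of these data known, were set beside the members. Over all genes tested in Pde6b rd10, 15.9% were called higher and 8.08% lower, and 59.2% did not overlap C3H. In Pde6b rd10, where Edn2, Edn3 and Ednrb rose, 10 of 11 microglia markers were called higher, and their summed level was 118 to 129 FPKM against 43.5 to 44.5 in C3H. The rod sum was 5256 to 5506 FPKM against 6213 to 6388, with 4 of 9 markers called lower, and the cone sum was 304 to 308 against 212 to 216, with 4 of 9 higher and 1 lower. The astrocyte sum was 190 to 210 FPKM against 88.0 to 93.1, with 2 of 5 markers, Gfap and Aldh1l1, called higher. Gfap, which is also in the glial response list, had 79.3 to 87.0 FPKM against 8.47 to 8.96, and without it the sum was 110.4 to 123 against 79.3 to 84.2 FPKM. The melanocyte sum, from 7 pigment cell markers, was 10.6 to 11.3 FPKM against a mean of 7.65 in C3H, without overlap. Tyrp1 was the 1 of 5 tested that was called, higher, and Mlana and Sox10 did not pass the filter. The pigment epithelium sum was 23.6 to 25.3 FPKM against 25.1 to 26.5 in C3H, with 1 of 6 tested markers called lower. The Mueller glia sum, from 11 markers, was 980 to 1012 FPKM against 1001 to 1021 in C3H, with 2 called higher and 1 lower. No marker of these lists was at 0 in all samples of a group. The part of any of these cell types in the rise of the endothelin genes was not tested.

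In Pde6b rd1, where Edn1 fell, the endothelial sum of 12 markers was 88.1 to 90.9 FPKM against 93.6 to 97.4 in C3H. Of these 12 markers 1, Emcn, was called lower. Over all genes tested in Pde6b rd1, 8.98% were called higher and 6.03% lower. The mural cell sum was 40.2 to 41.2 FPKM against 55.1 to 58.5, with 3 of 10 markers lower: Rgs5 (-0.62 ± 0.04; edgeR adjusted p = 2.71e-11), Acta2 (-0.91 ± 0.18; 1.8e-04) and the smooth muscle myosin gene Myh11 (6.94e-04). The Mueller glia sum was 595 to 605 FPKM against 1001 to 1021, with 5 of 11 markers lower and 1 higher, and Ednrb was not called in these samples. Within C3H that sum was 1001, 1003 and 1021 FPKM at days 13, 23 and 29, with 1 sample per age. The part of age was not tested. In Pde6b rd1 the pigment epithelium sum was 15.1 to 16.2 FPKM against 25.1 to 26.5. In Prph rd2 no endothelial, mural or Mueller glia marker was called, where 4.57% of all genes were. In Pde6b rd10, where Edn1 was not called, the endothelial sum was 82.0 to 89.2 FPKM, also wholly below C3H. Vwf was called higher there, and Kdr and Tie1 lower. The mural cell sum in Pde6b rd10 was 54.1 to 57.1 FPKM, with Higd1b called lower. The part of vascular cells in the Edn1 level was not tested.

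**Figure D5:**
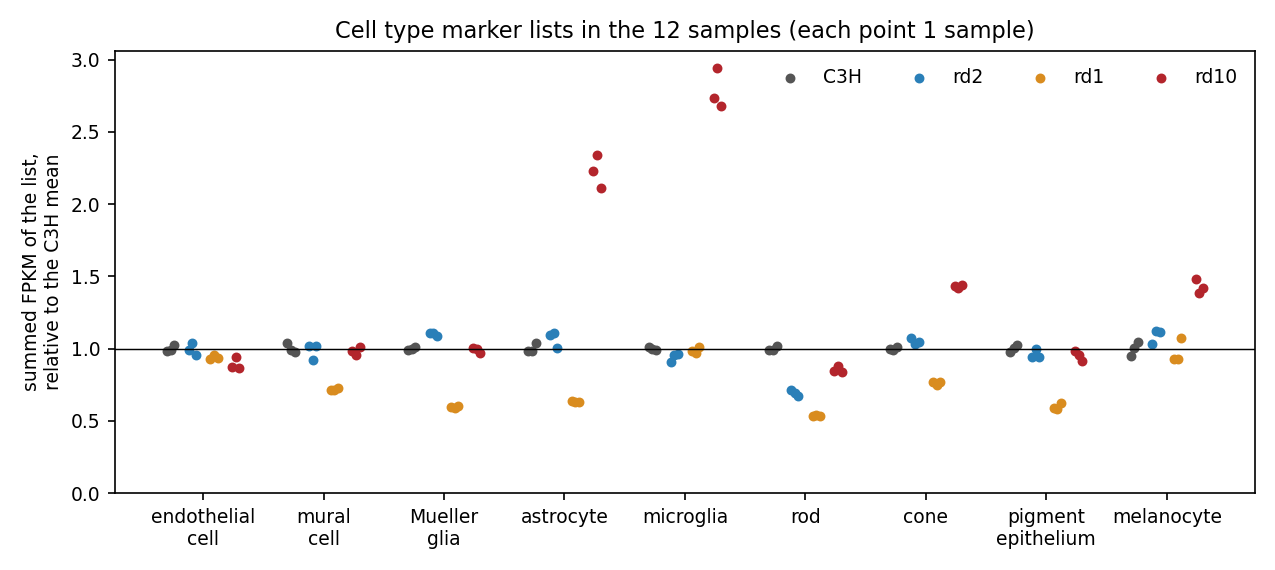
Summed FPKM of 9 cell type marker lists in each sample, divided by the mean of the C3H samples (vertical axis, linear from 0), each point 1 sample. Microglia and astrocyte lists are highest in Pde6b rd10, and mural cell, Mueller glia, astrocyte, rod, cone and pigment epithelium lists are lowest in Pde6b rd1.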

How the data were processed

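Gene counts, FPKM values and circRNA junction counts of 12 retina samples were used. The samples were grouped by genotype, from their labels. The labels do not say whether the samples of a group came from separate mice, so that p-values measure the spread between these samples. The gene counts were made by the authors, who aligned cleaned reads to GRCm38 and counted them with HTSeq v0.11.2, and are not normalized. The FPKM values were computed by the authors from these counts, by gene length and library size. The circRNA junction counts and the TPM values beside them were deposited by the authors after TopHat2 v2.1.1 and CIRCexplorer, with candidates under 2 junction reads discarded, and the TPM values were not used here. Depth is given with the results, and intervals and floors cover counting error only.

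The members and gene lists were chosen with earlier results of these data known. Each model was compared with C3H in R 4.3.3 with edgeR 4.0.16 (TMM, filterByExpr, quasi-likelihood test), and the models with each other in a fit of all samples. The study's thresholds were used, p under 0.05 unadjusted and 1.5-fold. The SE of a log2 fold change is its size divided by the square root of the test's F. From each list and comparison, at most 4 called genes with the smallest p were named, or all called genes where 5 or fewer were called. The steps were tested on simulated data. The replicate numbers are shared between groups, but the correlations of same-numbered samples' deviations were not all over 0.1 in any comparison, and the main fit has no block.

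Results were recomputed with DESeq2 1.42.0, with limma 3.58.1 on log2(FPKM + 1) or log2(FPKM + 0.1), with RLE factors or library totals alone, without a filter or with 1 CPM in 3 samples, by the adjusted p, with 1 fit of all samples, each replicate left out in turn, the replicate number as a block and the age-matched C3H sample alone. Loci came from GENCODE vM21, promoters from RefSeq. Protein sequences were not used here.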

Additional observations from a re-analysis of the deposited data

How the results depend on the processing

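Over all alternatives, 410 of 415 log2 fold changes of members kept their direction. None of the others was called in the comparison as reported, and 4 lost their call. With limma on log2(FPKM + 1), which compresses low levels, Edn1 in Pde6b rd1 was -0.40 and Edn3 and Ednrb in Pde6b rd10 were 0.25 and 0.55, all short of 1.5-fold; the members called were then 0 in Pde6b rd1 and 1 in Pde6b rd10 (Edn2), and the genes called 1097, 2035 and 166 in Pde6b rd1, Pde6b rd10 and Prph rd2, against 2749, 4479 and 850. With all samples in 1 fit, 2 members were called in Pde6b rd1, the added one being Edn3 with no reads. In Prph rd2, 1300 genes were called without a filter on low counts and 384 by the adjusted p. Leaving out each replicate in turn gave -1.51 to -0.64 for Edn1 in Pde6b rd1, 7.36 to 7.93 for Edn2, 2.98 to 3.53 for Edn3 and 0.57 to 0.68 for Ednrb in Pde6b rd10, 2 to 3 members called in Pde6b rd10, and 746 to 1435 genes called in Prph rd2, the most without Prph rd2 replicate 2; the cause was not tested. With 1 CPM in 3 samples as the filter, Edn3 was not tested.

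With the replicate number as a block, Edn1 in Pde6b rd1 was -1.01, and Edn2, Edn3 and Ednrb in Pde6b rd10 were 7.61, 3.34 and 0.63. No call of a member changed, and 2774, 4434 and 855 genes were called in Pde6b rd1, Pde6b rd10 and Prph rd2. In C3H replicates 1, 2 and 3 are also the samples of days 13, 23 and 29, while the samples of each model share a single age. The block therefore cannot tell a batch from the age of the C3H samples. Same-numbered samples correlated between 0.0573 and 0.126 for Pde6b rd1 and C3H, where 3 of 3 samples correlated best with their own number, between -0.0418 and -0.0011 for Pde6b rd10 and between -0.0710 and 0.0665 for Prph rd2. Depth limits Edn2 and Edn3 outside Pde6b rd10, where each sample had at most 6 reads.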

Other observations

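Other vasoactive genes, which the comparisons above do not include, were read for the same models. Their list, too, was chosen with earlier results of these data known. In Pde6b rd1, 7 of 18 tested genes for vasoactive peptides, their receptors and enzymes were called lower and none higher, with a median log2 fold change of -0.48 against -0.01 over all genes, of which 6.03% were called lower. By the smallest p they were led by Calcrl, which encodes the receptor of adrenomedullin and calcitonin gene-related peptide (-0.96 ± 0.09; edgeR adjusted p = 2.66e-09), the neuronal nitric oxide synthase gene Nos1 (-0.74 ± 0.07; 9.45e-09), the receptor partner gene Ramp3 (-0.75 ± 0.10; 6.48e-07) and the endothelial nitric oxide synthase gene Nos3 (-0.63 ± 0.12; 1.12e-04). In the same samples the mural cell marker sum was 40.2 to 41.2 FPKM against 55.1 to 58.5 in C3H and the endothelial sum 88.1 to 90.9 against 93.6 to 97.4, whose part in these values was not tested.

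In Pde6b rd10, 3 of 19 genes of this list were called higher and 3 lower, with a median of 0.05, where 15.9% of all genes were called higher and 8.08% lower, so that the share called higher was that of the background. The cyclooxygenase genes Ptgs1 (1.72 ± 0.15; edgeR adjusted p = 5.38e-09) and Ptgs2 (2.35 ± 0.30; 1.1e-06) rose, while Calcrl (-0.97 ± 0.08; 1.19e-09) and its partner gene Ramp2 (-0.63 ± 0.13; 2.76e-04) fell. Microglia markers, at 118 to 129 FPKM against 43.5 to 44.5 in C3H, were high in the same samples, and their part was not tested. In Prph rd2 the angiotensin receptor genes Agtr2 (0.79 ± 0.24; edgeR adjusted p = 0.0535) and Agtr1a (-1.03 ± 0.46; 0.191) were called in opposite directions at unadjusted p.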
